A study of Mus musculus with 2 samples.

Results

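The proximal signalling genes of the B cell antigen receptor (BCR) were Cd79a, Cd79b, Lyn, Syk, Btk, Blnk, Plcg2, Blk, Fyn and Bank1. Gene spots of the arrays were kept when their gene name, or its current synonym, was 1 of these 10, which gave 13 of 41174 gene probes and 31 of 43379 gene spots per array. All 10 genes were found, among 27669 gene names in all. The tested cells were autoreactive immature B cells of BALB.B mice, labelled 3-83Igi, Rag1-/- and H-2b, and the cells they were set against were non-autoreactive immature B cells of BALB/c mice, labelled 3-83Igi and H-2d. Both carry the 3-83Igi knock-in receptor, which binds a class I antigen that H-2b mice make and H-2d mice do not, and the series asks how cells that meet their antigen differ from cells that do not. Both came from bone marrow of untreated mice and were sorted as positive for B220 and negative for CD23, CD43 and IgD, in pools whose animals, ages and sizes the labels do not give.

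Each of 2 arrays held 1 pool of autoreactive cells in Cy5 directly against non-autoreactive cells in Cy3. Both arrays had the same dye orientation and lay on 1 slide, so strain, H-2 haplotype, the Rag1 disruption and the dye cannot be told apart from autoreactivity. The labels do not say that the non-autoreactive RNA of the arrays came from separate pools, and the p-values rest on the spread between these 2 arrays, which may be technical. The limma fit draws this spread mostly from all tested probes together, with 5.10 prior against 1 residual degrees of freedom. The SE of a single gene is thus not its own spread alone. Between 54.1% and 57.4% of gene spots stood well above background, depending on array and channel, with 0 saturated spots. Precision is limited by there being 2 arrays. As a check of the labels, H2-Ea, a class II gene that is silent in the H-2b haplotype, had a log2 ratio of -5.22 on array 1 and -5.26 on array 2. In pools of cells, fewer cells of a type and less RNA per cell cannot be told apart.

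The BCR itself has short tails and signals through Cd79a and Cd79b, a pair of chains whose tails carry tyrosine motifs. Src family kinases such as Lyn, Blk and Fyn phosphorylate these motifs, and the kinase Syk then docks on them. Syk phosphorylates the adaptor Blnk, which holds the kinase Btk and the phospholipase Plcg2 together, so that Plcg2 produces the messengers of the calcium and protein kinase C branches. Bank1 is a B cell scaffold that binds Lyn and the calcium channel of the endoplasmic reticulum. Signals through these proteins also act in developing B cells, where they bear on maturation, receptor editing and deletion.

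Promoters are shown for the adaptors Blnk and Bank1, whose transcripts differed in opposite directions, and for Cd79a, the receptor chain whose ratio changed sign between the arrays. They are RefSeq promoters of build GRCm38.p6, from 250 bases before to 50 after the start of the gene, written 5′ to 3′ on the gene's strand. Capitals mark matches, on either strand, to CCCNNGGG (EBF1), GAGGAA (PU.1 and other ETS factors), ATGCAAAT (octamer factors) or CAGGTG (E2A), motifs of factors known from B cell development.
Blnk, chr19:40994172-40994471, minus strand: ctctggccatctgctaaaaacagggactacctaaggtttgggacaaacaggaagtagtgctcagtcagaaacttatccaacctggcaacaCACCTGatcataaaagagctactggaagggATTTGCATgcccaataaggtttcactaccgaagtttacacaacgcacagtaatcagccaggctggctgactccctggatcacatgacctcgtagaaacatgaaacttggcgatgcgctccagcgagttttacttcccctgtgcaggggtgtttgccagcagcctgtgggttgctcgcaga
Bank1, chr3:136326017-136326316, minus strand: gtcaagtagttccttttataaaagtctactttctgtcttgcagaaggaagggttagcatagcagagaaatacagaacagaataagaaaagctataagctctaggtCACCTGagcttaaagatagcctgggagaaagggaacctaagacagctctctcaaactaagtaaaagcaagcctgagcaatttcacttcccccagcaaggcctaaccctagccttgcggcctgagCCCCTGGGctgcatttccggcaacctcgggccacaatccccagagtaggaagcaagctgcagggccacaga
Cd79a, chr7:24897247-24897546, plus strand: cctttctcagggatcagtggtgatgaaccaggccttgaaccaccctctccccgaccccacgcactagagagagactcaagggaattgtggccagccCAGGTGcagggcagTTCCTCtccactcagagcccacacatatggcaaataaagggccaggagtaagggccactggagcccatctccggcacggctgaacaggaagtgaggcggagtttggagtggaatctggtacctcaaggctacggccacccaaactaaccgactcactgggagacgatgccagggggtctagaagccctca
The Blnk promoter held 1 octamer match and 1 CAGGTG match, the Bank1 promoter 1 CCCNNGGG match and 1 CAGGTG match, and the Cd79a promoter 1 GAGGAA match and 1 CAGGTG match. Over the 8 promoters found for 7 of the members, CAGGTG was in 6, GAGGAA in 3, CCCNNGGG in 2 and ATGCAAAT in 1. Of all 32851 promoters of the table, 20.2% held CAGGTG, 28.3% GAGGAA, 13.7% CCCNNGGG and 1.7% ATGCAAAT. No overlap between matches of different motifs occurred in the promoters printed. A match is a run of letters and was not set against binding data. Only these exact runs were searched, so the lack of a match does not show the lack of a site.

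The genes of the adaptors and of 1 Src family kinase differed between the cells, while those of the receptor chains, Lyn, Fyn, Syk, Btk and Plcg2 did not pass the test. Bank1 was lower in autoreactive cells on both of its detected probes, at 2.44-fold and 2.13-fold. Blnk was 2.12-fold higher and Blk 1.61-fold higher. Blnk lies among the brightest probes of the arrays, where most ratios were above 0, and its size depends on the scaling more than that of Bank1 or Blk. Blk ceased to pass in 4 of 11 alternative settings, and Blnk and each Bank1 probe in 1. With the deposited ratios neither Blnk nor Blk passed.

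A gene or probe is called here when its limma p-value, adjusted by Benjamini-Hochberg over the 22613 probes tested, was under 0.05. All ratios are log2 of autoreactive over non-autoreactive, with limma standard errors (SE, n = 2 arrays) and 95% intervals. Of the 13 member probes, 12 were well above background in both channels on both arrays and were tested, and these represent all 10 genes. By the brightest probe of each gene, 2 members were called higher and 1 lower. Over all 15104 genes tested, 3.52% were called higher, 2.62% lower and 6.14% in either direction. Of the 12 member probes 2 were called higher and 2 lower, against 3.18% and 2.18% of all probes tested, and 5.36% in either direction. The median log2 ratio of the 10 genes was 0.024, against -0.0018 over all genes, and their median absolute log2 ratio was 0.25 against 0.18.

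**Figure D1:**
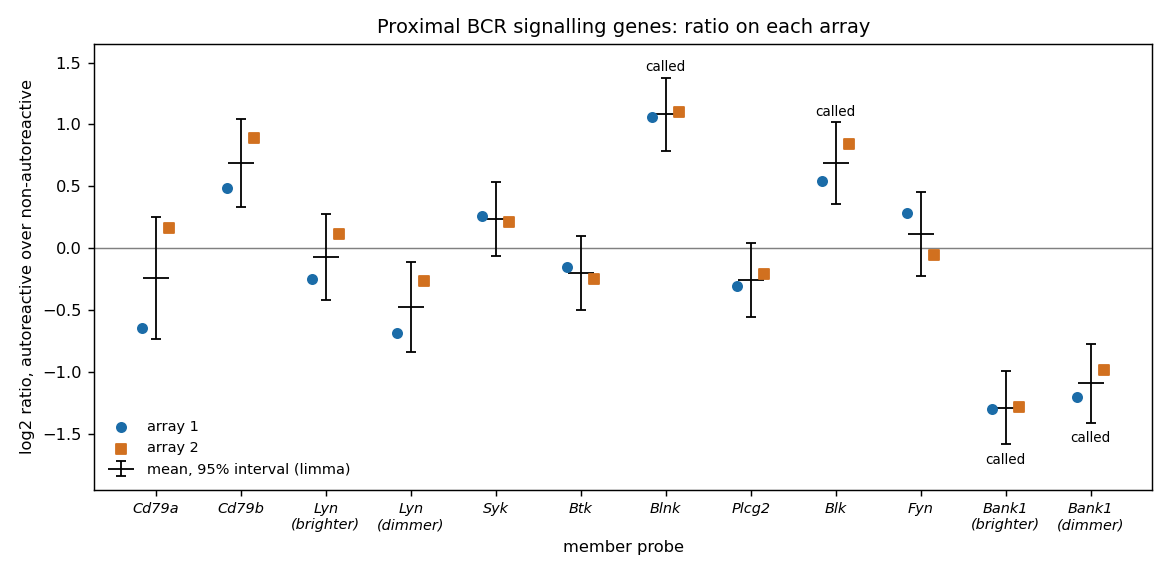
Log2 ratio of autoreactive over non-autoreactive cells (y axis) for the 12 tested probes of the members (x axis), with circles for array 1, squares for array 2, and the mean with its 95% limma interval. The Bank1 probes lie near -1.29 and -1.09 and Blnk near 1.08 on both arrays, while Cd79a, Fyn and the brighter Lyn probe lie on opposite sides of 0 on the arrays.

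The arrays gave 9 of the 12 probes on the same side of 0, against 70.8% of all tested probes. At least 2-fold on both arrays, the same way, were 2 of the 12, those of Blnk and the brighter Bank1 probe, against 1.42% of all tested probes. Ratios were higher on array 2 than on array 1 for 9 of the 12 probes. The exceptions were Syk, Btk and Fyn.

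Among the receptor chains, neither was called. Cd79b, the Ig-beta chain, was measured by a probe at chr11:106420507-106420566 in the file's own coordinates, which name no genome build, as holds for all probe positions here. Its raw mean spot intensities, before the dyes were brought to 1 scale, were 283732 on array 1 and 308471 on array 2 in autoreactive cells. In non-autoreactive cells they were 45261 and 40673. After normalization its log2 levels were 17.04 and 17.21 in autoreactive cells, against 16.55 and 16.32 in non-autoreactive cells. The autoreactive level was the higher one on both arrays. For Cd79b the log2 ratio was 0.69 ± 0.15 (array 1 gave 0.49 and array 2 gave 0.89, interval 0.33 to 1.04, limma adjusted p = 0.0549).

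Cd79a, the Ig-alpha chain, gave log2 levels of 10.97 and 11.55 in autoreactive cells, against 11.61 and 11.38 in non-autoreactive cells (chr7:21688822-21689079). The levels of the cells overlapped, and the sign of the difference depended on the array. The log2 ratio of Cd79a was -0.24 ± 0.20, with array 1 giving -0.64 and array 2 giving 0.16 (interval -0.74 to 0.26, limma adjusted p = 0.511). The gap of 0.81 between the arrays was the widest among the member probes, against a median gap of 0.19 over all tested probes. The interval of Cd79a reaches from 1.67-fold lower to 1.19-fold higher, so changes within this span are not excluded.

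Among the Src family kinases, Blk was called. Blk is a kinase largely restricted to the B lineage, and its probe lay at chr14:58242375-58243512. Its log2 levels were 12.36 on array 1 and 12.73 on array 2 in autoreactive cells, against 11.82 and 11.89 in non-autoreactive cells. Both autoreactive levels were above both non-autoreactive ones. The log2 ratio of Blk was 0.69 ± 0.14, with array 1 giving 0.54 and array 2 giving 0.84 (interval 0.36 to 1.02, limma adjusted p = 0.0444). The call stood close to the threshold and ended in 4 of 11 alternatives that gave a test, with adjusted p = 0.083 with the deposited ratios, 0.0714 with no filter on dim probes, 0.0556 with normexp offset 16 and 0.184 with separate channels. The size of Blk was between 0.69 and 1.45 over all of them.

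Lyn, the Src family kinase that both starts BCR signalling and phosphorylates inhibitory receptors, was measured by 2 probes (chr4:3717973-3718032 and chr4:3716905-3716964). The brighter probe had log2 levels of 14.80 and 15.26 in autoreactive cells, against 15.05 and 15.14 in non-autoreactive cells. The dimmer probe had 12.09 and 12.89 in autoreactive cells, against 12.78 and 13.15 in non-autoreactive cells. On the brighter probe the arrays disagreed in sign, and on the dimmer one the autoreactive level was lower on each array, though levels overlapped across arrays. The log2 ratio of Lyn was -0.068 ± 0.14 on the brighter probe (limma adjusted p = 0.807) and -0.47 ± 0.15 on the dimmer one (interval -0.84 to -0.11, limma adjusted p = 0.137). The intervals of the Lyn probes overlap, and neither was called.

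Fyn, a Src family kinase that T and NK cells use as well as B cells, and Btk, the kinase that activates Plcg2, were each measured by 1 probe printed as 10 spots per array. On array 1 the 10 Fyn spots gave log2 ratios of 0.10 to 0.39 (median 0.30), and on array 2 the 9 spots left after an outlier was removed gave -0.16 to -0.021 (median -0.045). Every Fyn spot was above 0 on array 1 and below 0 on array 2. The SD over Fyn spots was 0.077 on array 1 and 0.041 on array 2, so the gap of 0.34 between the arrays was larger than the spread between spots. Over both arrays the log2 ratio of Fyn was 0.12 ± 0.14 (interval -0.23 to 0.46, limma adjusted p = 0.650).

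Btk spots were all below 0, at -0.32 to -0.097 on array 1 (10 spots, median -0.13) and -0.36 to -0.19 on array 2 (9 spots, median -0.22). Mean spot intensity ran from 8290 to 15128 in autoreactive cells on array 1, against 3476 to 5318 in non-autoreactive cells. On array 2 it ran from 7530 to 9039 in autoreactive cells, against 3726 to 4214. These are raw Cy5 and Cy3 intensities, before the dyes were brought to 1 scale. The log2 levels of Btk were 12.83 and 12.37 in autoreactive cells, against 12.98 and 12.62 in non-autoreactive cells. The log2 ratio of Btk was -0.20 ± 0.12 (interval -0.50 to 0.10, limma adjusted p = 0.374), and Btk was not called. All 19 spots kept were on the same side of 0, but spots of an array share 1 pair of RNA samples and were averaged before the test. Over the 142 tested probes with 5 or more spots, the median SD between spots was 0.056 on array 1 and 0.054 on array 2, and the median gap between arrays 0.19.

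**Figure D2:**
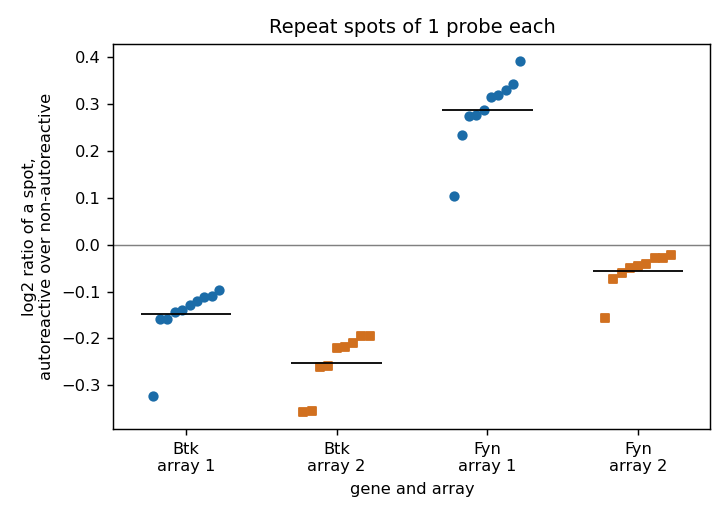
Log2 ratio of autoreactive over non-autoreactive cells (y axis) for each spot of the Btk and Fyn probes, by gene and array (x axis), with outlier spots left out and a line at the mean. Btk spots lie below 0 on both arrays, while Fyn spots lie between 0.10 and 0.39 on array 1 and between -0.16 and -0.021 on array 2.

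Syk, the kinase that docks on the phosphorylated chains, had log2 levels of 15.37 and 15.51 in autoreactive cells, against 15.11 and 15.30 in non-autoreactive cells (chr13:51686664-51686723). Its levels in autoreactive cells were higher within each array by a small margin. Its log2 ratio was 0.23 ± 0.12, with array 1 giving 0.26 and array 2 giving 0.21 (interval -0.063 to 0.53, limma adjusted p = 0.304). Plcg2, the phospholipase at the end of this chain, had log2 levels of 15.71 and 15.81 in autoreactive cells, against 16.02 and 16.02 in non-autoreactive cells (chr8:116248022-116248079). Both autoreactive levels were below both non-autoreactive ones. For Plcg2 the log2 ratio was -0.26 ± 0.12, with array 1 giving -0.30 and array 2 giving -0.21 (interval -0.56 to 0.044, limma adjusted p = 0.273). The intervals of both genes include 0 and changes of up to 1.45-fold higher for Syk and 1.47-fold lower for Plcg2.

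The adaptor Blnk was called as higher. Its raw mean spot intensities, before the dyes were brought to 1 scale, were 214830 on array 1 and 200362 on array 2 in autoreactive cells. In non-autoreactive cells they were 24531 and 24798 (chr19:40822777-40822836). Normalized log2 levels of Blnk were 16.67 and 16.66 in autoreactive cells, against 15.61 and 15.56 in non-autoreactive cells. The cells did not overlap. For Blnk the log2 ratio was 1.08 ± 0.12, with array 1 giving 1.06 and array 2 giving 1.10 (interval 0.79 to 1.38, limma adjusted p = 0.0092).

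The scaffold gene Bank1 was called as lower on both tested probes. The brighter probe had log2 levels of 10.91 and 11.32 in autoreactive cells, against 12.21 and 12.60 in non-autoreactive cells (chr3:135848247-135848306). The dimmer probe had 7.38 and 8.33 in autoreactive cells, against 8.58 and 9.31 in non-autoreactive cells. The file gives the dimmer probe as chr3:135898251-136008078, a stretch of 109828 bases that a short probe can only match in pieces. On the brighter probe the cells did not overlap, and on the dimmer one they did not either. Raw mean spot intensities of the brighter probe, before the dyes were brought to 1 scale, were 3212 and 3932 in autoreactive cells. In non-autoreactive cells they were 2775 and 4031. Before loess the log2 ratio of this probe was 0.20 on array 1 and -0.041 on array 2. The log2 ratio of Bank1 was -1.29 ± 0.12 on the brighter probe (-1.30 and -1.28, interval -1.58 to -0.99, limma adjusted p = 0.00617) and -1.09 ± 0.13 on the dimmer one (-1.20 and -0.98, interval -1.41 to -0.78, limma adjusted p = 0.0101). With the channels taken as separate samples, not paired by array, neither probe of Bank1 passed (limma adjusted p = 0.0684 and 0.299).

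A further probe named Bank1, at chr3:136005336-136005395 and made from a cDNA clone of aorta and vein, was not well above background in either channel on either array. Its mean spot intensities were 57.4 and 57.6 in autoreactive cells, against 37.4 and 39.5 in non-autoreactive cells, beside local backgrounds of 58.0 and 52.0 in autoreactive cells, against 31.0 and 31.0. No ratio is given for it.

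**Figure D3:**
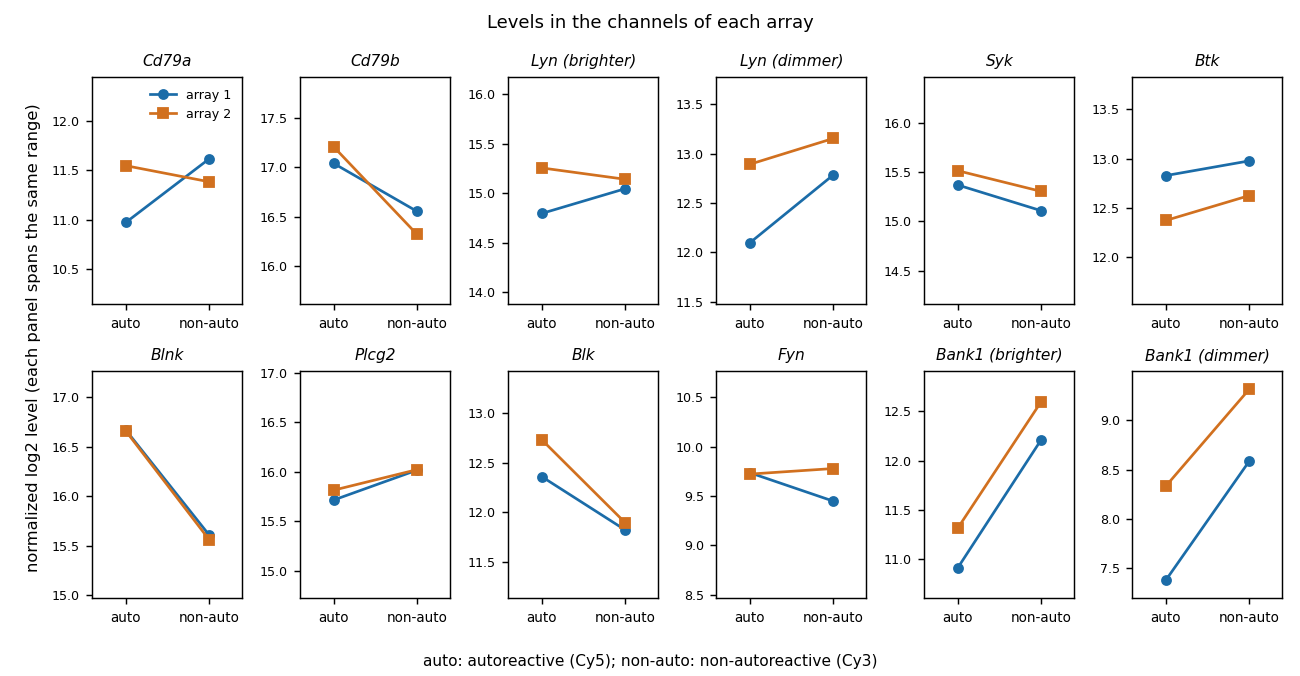
Normalized log2 level (y axis, the same range in every panel) in autoreactive and non-autoreactive cells (x axis) for the 12 tested member probes, with 1 line per array. The lines fall steeply from autoreactive to non-autoreactive cells for Blnk and climb for both Bank1 probes, and they cross for Cd79a, Cd79b and Fyn.

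In the brightest probes the ratios ran above 0. The median log2 ratio lay between -0.047 and 0.040 in every band of brightness below the brightest 3% of probes. The probes of Cd79b, Blnk, Plcg2, Syk and the brighter one of Lyn were among the brightest 5% of all tested probes, at percentiles 99.9, 99.0, 98.6, 97.2 and 96.4 in that order. In the brightest 5%, 1131 probes, the median log2 ratio was 0.16 and 20.4% of probes were called, 18.2% as higher. In the brightest 1% the median was 0.76 and 55.9% were called, 55.1% as higher. The 1.08 of Blnk and the 0.69 of Cd79b stand beside this 0.76. The part of the dye or of the normalization in this was not tested, and with autoreactive cells in Cy5 on both arrays it cannot be told apart from a difference between the cells. Blk, Btk, Cd79a, the brighter Bank1 probe and the dimmer Lyn probe lay between percentiles 65.3 and 80.6, where 4.04% of probes were called, with Fyn at percentile 44.6 and the dimmer Bank1 probe at 28.3.

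**Figure D4:**
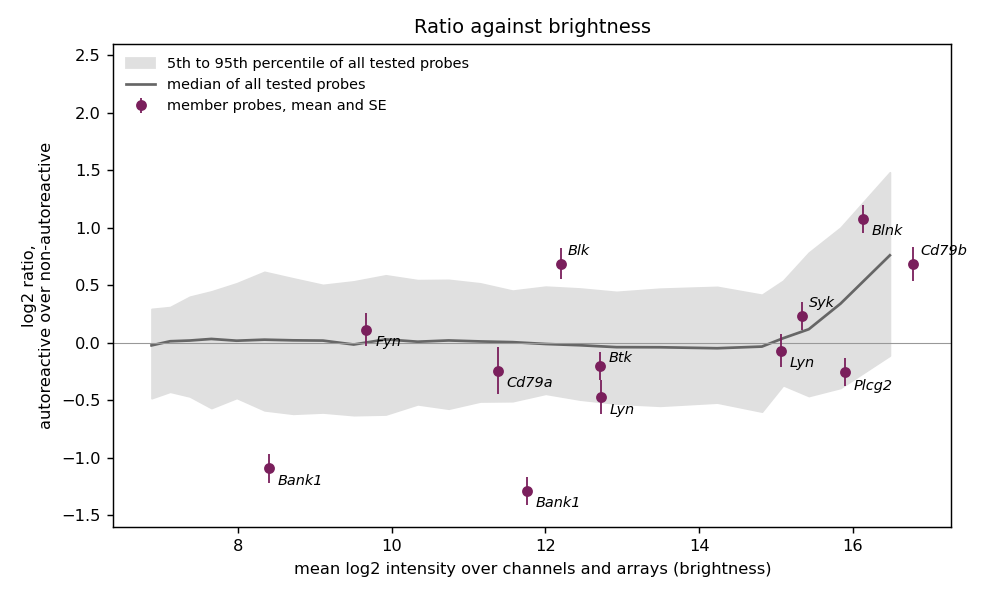
Log2 ratio of autoreactive over non-autoreactive cells (y axis) against mean log2 intensity over channels and arrays (x axis), with member probes as points with SE and all tested probes as a median line and a band from the 5th to the 95th percentile. The median climbs to 0.76 in the brightest 1%. Blnk lies inside the band and above the median, Plcg2 below the median, and both Bank1 probes below the band. Cd79b, at 0.69, lies beyond the bright end of the median line.

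When each array's ratios were centred in 50 bands of brightness after loess, an alternative chosen after seeing the data, Blnk stood at 0.56 (limma adjusted p = 0.0481) and Cd79b at 0.17 (adjusted p = 0.553). With the deposited ratios they stood at 0.76 (adjusted p = 0.0577) and 0.20 (adjusted p = 0.522). After centring in bands, 19.4% of the brightest 1% of probes, where Blnk and Cd79b lie, were still called higher. Plcg2 was called as lower in the bands, at -0.77 (adjusted p = 0.0185), and stood at -0.60 with the deposited ratios (adjusted p = 0.103). Its band also held the brighter probes of Blnk and Cd79b and shifted them by the same amount. Before this centring the median log2 ratio rose from 0.34 to 0.76 within that band. The part of this rise in the Plcg2 call was not tested. Median centring over all gene probes, which puts the median probe at 0.54, turned Plcg2 to 1.04 and raised Blnk to 2.42. Bank1 lay between -1.33 and -0.57 on the brighter probe and between -1.42 and -0.78 on the dimmer one over all 11 settings, and was below 0 in each.

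**Figure D5:**
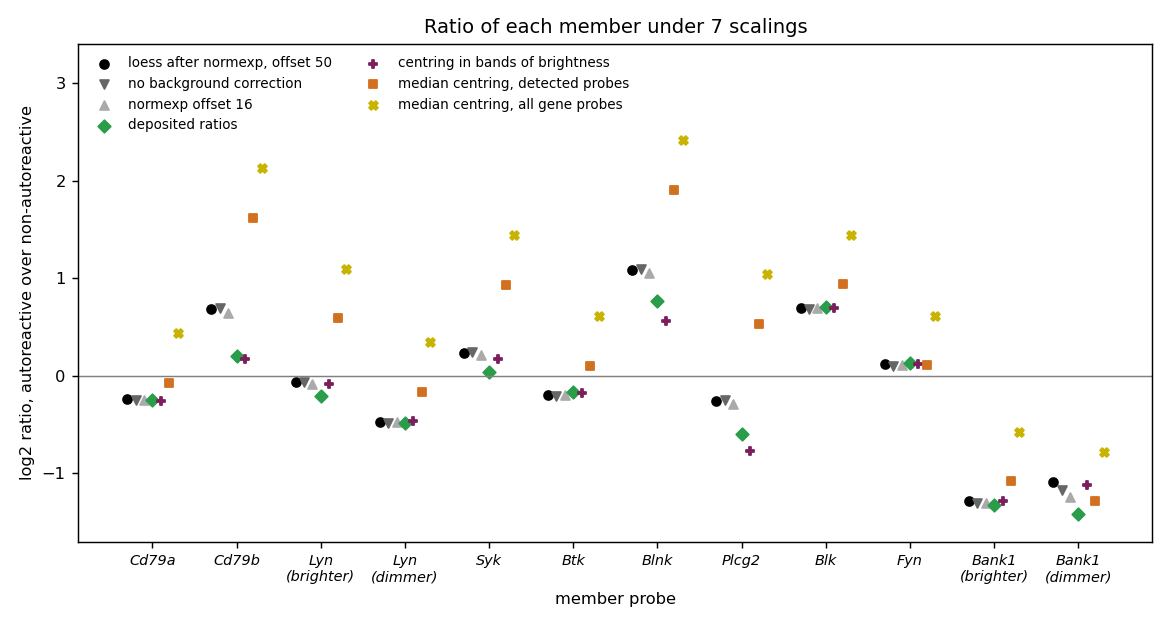
Log2 ratio of autoreactive over non-autoreactive cells (y axis) of each tested member probe (x axis) under 7 scalings of the same arrays, 1 marker for each. Bank1 lies below 0 and Blnk and Blk above 0 in every scaling, while Plcg2 ranges from -0.77 to 1.04 and Cd79b from 0.17 to 2.13.

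The difference between Blnk and Plcg2, whose probes are close in brightness, moved little with the scaling. This follows largely from the settings themselves. Median centring shifts all probes of an array alike, and the bands shifted Blnk, Cd79b and Plcg2 alike. The filters, the variance setting and the separate channels keep the main ratios. The range over settings is therefore no test of how steady a difference is. Blnk exceeded Plcg2 by 1.37 on array 1 and 1.31 on array 2 in log2 ratio, and by 1.34 to 1.37 over the 11 settings. Blnk exceeded Syk by 0.80 and 0.89 (0.39 to 0.97 over settings) and Lyn by 1.31 and 0.99 (0.64 to 1.32). It exceeded Cd79b by 0.58 and 0.21 (0.29 to 0.56). Cd79b exceeded Plcg2 by 0.79 and 1.09 (0.79 to 1.09). These differences within an array were not tested, and they do not say which gene of a pair changed.

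Other genes of the pathway were taken from 4 lists of 60 genes. Of 57 tested, 2 were called higher and 10 lower, against 3.52% and 2.62% of all genes, with a median log2 ratio of -0.17 (array 1 gave -0.21, array 2 gave -0.19). On both arrays, 33 were below 0 and 12 above it.

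Among 9 tested kinases of the lists, 2 were lower, Zap70 among them, and Tec was higher. Zap70, the relative of Syk that T cells use, stood at -0.74 ± 0.13 (limma adjusted p = 0.0351), a call that ended in 4 of 11 alternatives (highest adjusted p = 0.252). Tec, the relative of Btk, was higher on both of its probes, at 1.11 ± 0.12 (1.11 and 1.12, limma adjusted p = 0.00877) and 0.95, and its call ended with separate channels (adjusted p = 0.0542). Fgr, another Src family kinase, at -1.03 ± 0.22, and Txk, a Tec family kinase, at -1.37 ± 0.35, did not pass.

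Of 21 tested adaptors, 2 were lower. Lat2, an adaptor of B cells and mast cells related to Lat, stood at -1.17 ± 0.13 (-1.29 and -1.06, limma adjusted p = 0.00902), and its other probe at -1.03. Its call ended with median centring over all gene probes (adjusted p = 0.0802). Lat, the T cell adaptor that is also in the T cell list below, stood at -0.90 ± 0.17 (-0.60 and -1.20, limma adjusted p = 0.0410), and the call ended in 3 of 11 alternatives (highest adjusted p = 0.128). Pik3ap1, a scaffold of the same family as Bank1, gave -0.47 to -0.50 on its 3 probes and did not pass. Grb2 stood at -0.52 ± 0.12 and Dok3 at 0.49 ± 0.12, and neither passed.

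Of 11 coreceptor and inhibitor genes, the complement receptor gene Cr2 and the phosphatase gene Ptprc were lower, at -1.09 ± 0.13 and -0.85 ± 0.12. The other 3 probes of Ptprc gave -0.59, -0.48 and -0.77. Of 16 effector genes, 4 were lower and 1 higher. The calcium channel genes Itpr3 (-1.05 ± 0.13) and Itpr1 (-0.76 ± 0.13) and the Ras activator gene Rasgrp1 (-0.63 ± 0.12) were among the lower ones. Plcg1, the relative of Plcg2 that T cells use, was higher at 0.93 ± 0.12 (limma adjusted p = 0.0137), though its other probes gave 0.68 and -0.37. The Plcg1 call ended with the mean over its probes (adjusted p = 0.108) and with separate channels (adjusted p = 0.0573). Limma adjusted p-values of Cr2, Ptprc, Itpr3, Itpr1 and Rasgrp1 were 0.0101, 0.0184, 0.0113, 0.0287 and 0.0438. The Rasgrp1 call ended in 6 of 11 alternatives (adjusted p of 0.0553 to 0.410), and under median centring over all gene probes it stood at 0.36 (adjusted p = 0.0462). The calls of Ptprc, Itpr1 and Itpr3 each ended or turned in sign in 3 of 11 alternatives, and that of Cr2 in 0.

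The label of immature B cells was set against markers. All 8 B lineage markers were well above background in both channels on both arrays, with 4 called higher and 1, Pax5, lower in autoreactive cells (median log2 ratio 0.62). Their summed normalized levels were 634076 and 676510 in autoreactive cells, against 401426 and 375891 in non-autoreactive cells.

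Of 42 tested markers of 5 other cell types, 0 were called higher and 5 lower, with medians of -0.29 (array 1) and -1.05 (array 2). On both arrays, 38 of them were well above background in autoreactive cells and 42 in non-autoreactive cells. Standing above background thus does not set the B lineage markers apart from those of other cells. All 8 plasmacytoid dendritic cell markers were below 0 on both arrays, array 1 giving a median of -0.78 and array 2 one of -2.66, and 1 was called (Cox6a2). Their summed levels were 12231 and 6959 in autoreactive cells, against 21674 and 30040 in non-autoreactive cells. Bank1 gave -1.30 and -1.28 on the same arrays on its brighter probe, alike on both arrays. The part of these cells in the Bank1 result was not tested.

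T cell markers gave medians of -0.28 (array 1) and -0.75 (array 2), with 6 of 7 below 0 on both, and NK cell markers -0.026 and -1.28, while Fyn gave 0.29 and -0.056. The summed T cell marker levels were 2754 and 1783 in autoreactive cells, against 3146 and 3611 in non-autoreactive cells, and those of the NK cell markers 10824 and 5431, against 11144 and 13895. Cd3g and Cd8a were not well above background in autoreactive cells on either array. Myeloid and granulocyte markers had medians of 0.066 and -0.72, with summed levels of 527750 and 461971 in autoreactive cells, against 440520 and 600873 in non-autoreactive cells. Erythroid markers were below 0 on both arrays for 7 of 7 tested genes, with a median of -0.53 and summed levels of 24661 and 20152 in autoreactive cells, against 36436 and 30624. The part of these cells in the ratios of Fyn, Zap70, Lat and the members that myeloid cells also express, Lyn, Syk, Btk and Plcg2, was not tested.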

How the data were processed

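RNA of sorted bone marrow cells (0.5 ug per sample, per the labels) was amplified linearly (an Agilent kit for low inputs), labelled and hybridised to 2 two-colour arrays. For each spot and dye the deposited files give a mean intensity and a local background intensity (its median), which, per the file headers, the authors obtained from Agilent's program Feature Extraction (version 9.5.1.1). They also deposited a log10 ratio (Cy5 to Cy3) and a p-value for every spot from the same program. The p-value was not used. The value table of the series has the same log10 ratios (largest difference 5e-10).

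Using limma 3.58.1 in R 4.3.3, the background was corrected by normexp at an offset of 50 and each array was then loess-normalized, with no weight for control and outlier spots. Outlier spots were removed, spots of a probe averaged, and probes tested when well above background (at least 0.5 of their spots) in at least 1 channel on each array, with a value on both. Log2 ratios of 22613 probes were tested against 0 with lmFit and eBayes, two-sided (prior 5.10 and 1 residual degrees of freedom). Channel levels are log2 after loess and Aquantile scaling. A gene was represented by its brightest tested probe. Names come from RefSeq (GRCm38.p6), by accession for 22951 probes, another accession for 124, symbol for 6582, synonym for 3077 and the file for 8440.

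The members, gene lists, motifs and alternatives were chosen with earlier results of these data known. Named genes are the members, up to 4 called genes in each direction per pathway list, and H2-Ea. Of these, 2 are not reported here. Fgr, Txk, Pik3ap1, Grb2, Dok3 and the markers Pax5, Cox6a2, Cd3g and Cd8a were named after their values were seen. Of the other genes of the pathway, Yes1, Bmx and Gab2 were not tested, nor were Cd4 and Hbb-b1 among the markers. Plots were made in matplotlib 3.10.9. Simulated data with known changes served to test the fit. Alternatives are listed in the closing section.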

Additional observations from a re-analysis of the deposited data

How the results depend on the processing

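The ratio within an array pairs the cells, and the fit with separate channels drops this pairing. Each array alone has no residual degrees of freedom and gave values with no test. Counts are given higher then lower in autoreactive cells, and were 2 and 1 for member genes, 2 and 2 for member probes, 2 and 10 for pathway genes, 531 and 396 for all genes and 718 and 494 for all probes. With the deposited ratios no member was called higher, pathway genes called lower were 6, all genes called higher 300 and all probes called higher 434. With normexp offset 16, and with no filter on dim probes, 1 member gene and 1 member probe were called higher. No filter also gave 244 genes and 301 probes lower. Separate channels gave 1 and 0 member genes, 1 and 0 member probes, 0 and 4 pathway genes, 106 and 71 genes and 127 and 89 probes, and ended the calls of Bank1 (adjusted p = 0.0684 and 0.299) and Blk. Median centring over all gene probes called 8 member genes and 8 member probes, 33 pathway genes, 9922 genes and 14276 probes higher, and 5 pathway genes lower. Over detected probes it called 6 member genes and 6 member probes higher, 13 and 16 pathway genes, 2968 and 2255 genes and 3716 and 3535 probes. Bands of brightness gave 2 member genes lower, and the mean over the probes of a gene 1 pathway gene higher. Under median centring over all gene probes the log2 ratio was 0.43 for Cd79a, 1.10 and 0.35 for the Lyn probes, 0.61 for Btk, 1.04 for Plcg2, 0.36 for Ptprc, 0.36 for Rasgrp1, 0.020 for Itpr1 and 0.14 for Itpr3. Over detected probes it was 0.59 for the brighter Lyn probe, 0.10 for Btk and 0.53 for Plcg2. Without replicate 1 it was 0.16 for Cd79a, 0.11 for the brighter Lyn probe and -0.056 for Fyn. Without replicate 2 these were -0.64, -0.25 and 0.29. The cause of these changes was not tested. A trended and robust variance, no background correction and a filter in both channels ended no member call. Signal over background limits the dimmer Bank1 probe most, with mean intensities of 229 and 430 in autoreactive cells, against 234 and 453, beside local backgrounds of 53.0 and 52.5 in autoreactive cells, against 32.0 and 31.5.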
